A study of Apis mellifera with 18 samples.

Results

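The genes described here are those of aminoacyl-tRNA synthesis, the 53 of 17545 genes of the honey bee (Apis mellifera) table whose deposited KEGG pathway annotation names aminoacyl-tRNA biosynthesis. Their RNA was counted in 18 libraries, 9 from tissue that the labels call mouthparts and 9 from tissue that they call tentacles. In each tissue 3 libraries came from bees that collected Olea europaea pollen, called olea here, 3 from bees that collected pear pollen and 3 from a control group without pollen. The labels used here give no age, strain or colony for these bees. They do not say whether a library holds 1 bee, a pool or a repeated preparation, so every p-value below measures only the spread between these libraries. Total counts per library ran from 25.9 to 41.4 M (M, 1000000 counts), with 25.9 to 26.8 M in olea mouthparts and 37.0 to 40.3 M in pear mouthparts. In the mouthparts, the 3 libraries taken here as olea have conflicting labels. Their titles and source names give pear pollen, their genotype entries give olea pollen, and the genotype entries were followed, so each mouthparts value for olea rests on that reading. The library codes in the same titles begin with YH. They share their first letter with the codes of the olea tentacles (YC), whereas the other pear libraries have LC and LH.

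Aminoacyl-tRNA synthetases join each amino acid to its transfer RNA, and the ribosome reads the message through these charged tRNAs. Animals make cytosolic enzymes and others that are imported into mitochondria, mostly from separate nuclear genes, and several cytosolic ones are held together in a multi-synthetase complex by scaffold proteins. Uncharged tRNA is sensed by the kinase GCN2, which slows the initiation of translation, and cells that secrete much protein, such as those of the hypopharyngeal glands in the head of worker bees, use much charged tRNA.

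The tissue labels were checked against defining genes, in counts per 1000000 counts after TMM scaling (CPM). Odorant receptor 2, the co-receptor of the insect olfactory receptors (GB40730), had 0 to 5.35 CPM in the mouthparts libraries and 378 to 580 CPM in the tentacles libraries. The mouthparts homeobox gene proboscipedia (GB51302) had 66.5 to 107 CPM in mouthparts and at most 0.300 CPM in tentacles.

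Of the 53 genes, 40 matched an enzyme of the pathway with a KEGG e-value of 1e-100 or less, and 38 of these matches were to an annotated honey bee gene. They comprised 4 other enzymes and 36 synthetases for all 20 amino acids, of which 13 are annotated as cytosolic, 14 as mitochondrial and 9 without a compartment. The 4 are the mitochondrial subunits GatA (GB49033) and GatB (GB41031), which convert glutamate to glutamine on its tRNA, the mitochondrial methionyl-tRNA formyltransferase (GB42742) that prepares the initiator tRNA, and SepSecS (GB49488), which completes selenocysteine on its tRNA in many animals. The other 13 genes had weaker matches, and 5 of them carry a synthetase domain. Among the weak matches are the peritrophin GB41202, a protein type of the gut lining, and the NUC153 domain protein GB52612. All 40 strong matches passed the filter on low counts in every comparison. Of the 13 weak matches, GB53059, GB46097, GB47168, GB42512 and GB55862 had 0 counts over the 18 libraries, GB52344 had 4, and GB53966 had 136 and was not tested in the mouthparts. Results below are for the 40 enzymes unless all members or a weak match are named. How reads were divided between related genes is not given in the sources used here, which touches genes of the same enzyme such as the pair of valyl-tRNA synthetase genes.

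Levels between genes were compared on the authors' FPKM scale (fragments scaled by transcript length and library size), over the 9 libraries of a tissue. Cytosolic tyrosyl-tRNA synthetase (GB52739) had the highest mean level of the 40, with 59.5 ± 3.4 FPKM in mouthparts and 55.1 ± 4.2 FPKM in tentacles (SD, n = 9 each). The cytosolic threonyl enzyme (GB40563) followed with 41.0 ± 1.7 FPKM in mouthparts and 39.4 ± 1.4 FPKM in tentacles, and the cytosolic asparaginyl enzyme (GB42355) with 39.6 ± 2.1 FPKM in mouthparts and 35.4 ± 3.2 FPKM in tentacles. The ranges of the threonyl and asparaginyl enzymes overlapped in both tissues, and the range of the tyrosyl enzyme stood above both. Among the cytosolic enzymes the seryl (GB45738) and cysteinyl (GB41455) genes were lowest, with 10.7 ± 1.9 and 11.3 ± 1.3 FPKM in mouthparts and 13.9 ± 2.2 and 11.9 ± 1.0 FPKM in tentacles. Mitochondrial enzymes reached at most 21.6 ± 2.4 FPKM in mouthparts, for the phenylalanyl gene GB44144, and 25.2 ± 1.8 FPKM in tentacles, for the tyrosyl gene GB44521. Their lowest members were the alanyl gene GB47350 (2.69 ± 0.53 FPKM in mouthparts and 5.03 ± 0.89 FPKM in tentacles) and the arginyl gene GB50751 (2.78 ± 0.45 and 4.65 ± 1.2 FPKM). SepSecS (GB49488) overlapped these ranges, at 2.94 ± 0.42 FPKM in mouthparts and 6.28 ± 0.74 FPKM in tentacles.

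The first comparison set bees that collected pollen against control bees in the tentacles, where part of the pathway was lower. With olea pollen 12 of the 40 enzymes fell and with pear pollen 14 fell, at a Benjamini-Hochberg adjusted p under 0.05 in edgeR's quasi-likelihood test. The background was 13.5% of 12950 genes lower and 14.4% higher with olea, and 14.6% lower and 14.9% higher with pear, and the enzymes' shares lower were 30.0% and 35.0%. In edgeR's test 0 enzymes were higher with either pollen, at an unadjusted p under 0.05 0 were higher with olea and 2 with pear, and DESeq2 and limma called 0 higher with either. The median log2 fold change of the 40 was -0.16 with olea and -0.13 with pear, against -0.003 and -0.007 over all genes tested. Both contrasts use the same 3 control libraries. That this pathway was lower in pear tentacles was known when the members were chosen, so the excess over the background there is not independent evidence. The excess with olea, taken against the same 3 control libraries, is not independent of that choice either. Over all members, 13 were lower with olea and 15 with pear, and leaving out 1 library gave 7 to 19 and 7 to 18. The count with olea was 7 without olea replicate 3, and that with pear was 9, 8 and 7 without pear replicates 1, 2 and 3. In bulk tissue, fewer cells that hold an RNA and less of it in each cell cannot be told apart.

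Genes of gland secretion differed between the same libraries by far more. The royal jelly protein family, a product of the hypopharyngeal glands, was lower in 15 of 23 tested genes with each pollen, with summed levels of 1070 to 1088 CPM in olea and 1046 to 1069 CPM in pear tentacles, against 17500 to 27680 CPM in controls. A list of 12 genes of secretory load, such as the chaperone BiP, was lower in 9 with each pollen, with summed levels of 2631 to 2670 CPM with olea and 2464 to 2530 CPM with pear, against 4344 to 4717 CPM in controls. At most 1 of the 28 royal jelly family genes was at 0 in a group. The summed level of the 40 enzymes was 2106 to 2127 CPM with olea and 2126 to 2163 CPM with pear, against 2272 to 2325 CPM in controls. Other cell types' genes moved as well. Of 28 tested muscle genes 6 were lower with olea and 20 with pear, with summed levels of 4495 to 4569 CPM in olea and 3273 to 3431 CPM in pear tentacles, against 4345 to 4903 CPM in controls. Of 28 tested neuron genes 15 were higher with olea and 14 with pear, and of 4 hemocyte and immune genes 2 and 3 were lower, at 204.2 to 209.6 CPM with olea and 171.2 to 177.8 CPM with pear, against 265.0 to 312.1 CPM in controls. The part of gland, muscle, neuron and immune cell RNA in the lower enzyme levels was not tested.

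**Figure D1:**
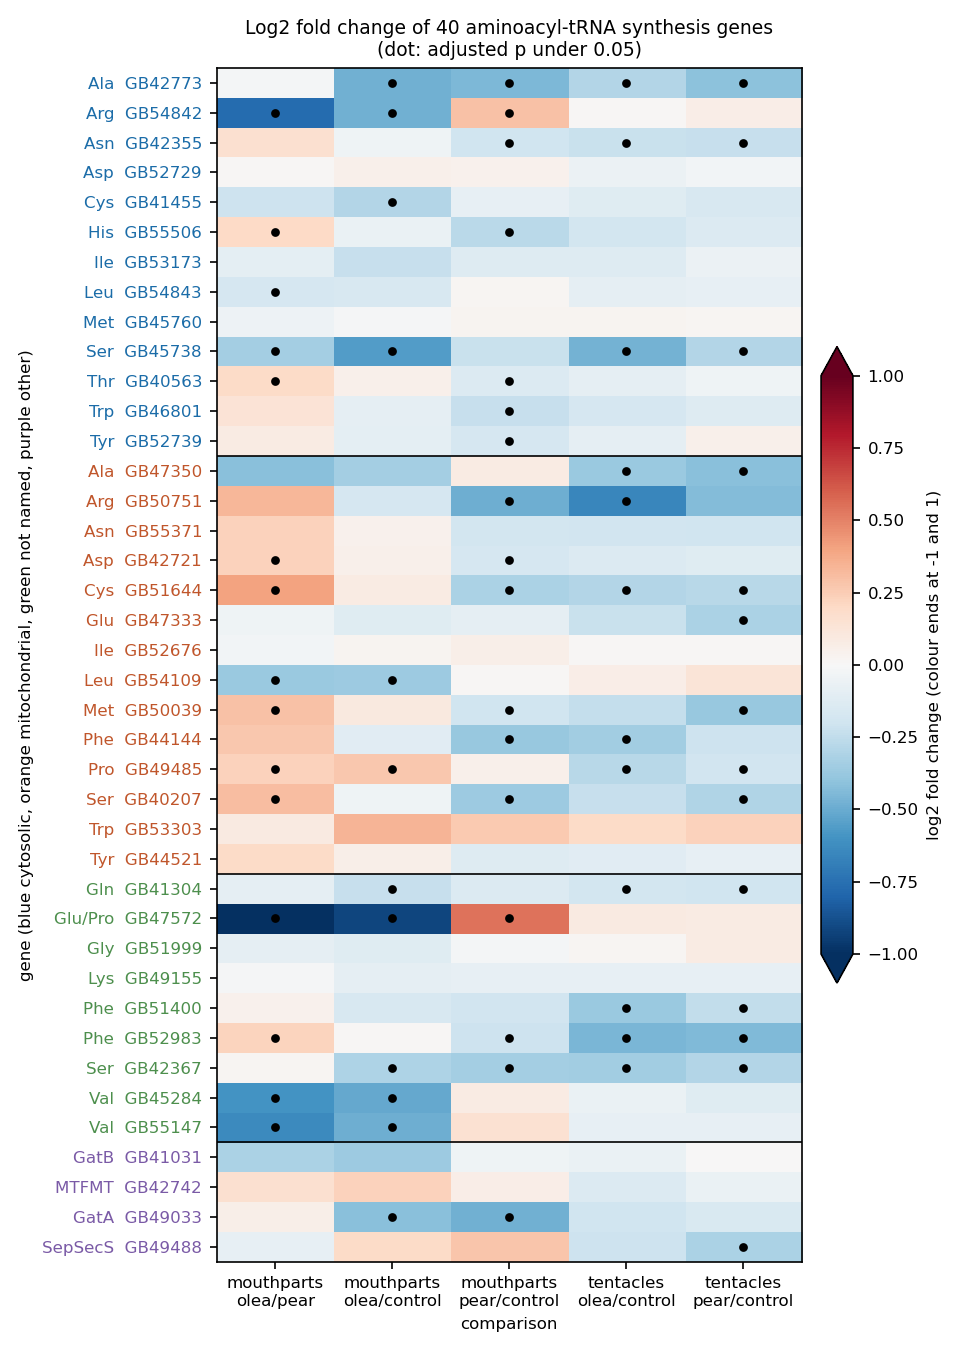
Log2 fold changes (colour, blue lower and red higher in the first-named group, colour ends at -1 and 1) of the 40 enzymes in rows, for 5 comparisons in columns. Black dots mark an adjusted p under 0.05, with 12 dots for olea over control tentacles and 14 for pear over control tentacles, all of them on blue.

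Cytosolic alanyl-tRNA synthetase (GB42773), which charges alanine, had 58.9, 55.5 and 53.4 CPM in olea tentacles and 51.9, 53.8 and 49.5 CPM in pear tentacles, against 71.8, 71.2 and 61.3 CPM in control tentacles. All 6 pollen libraries were below all 3 control libraries. Its log2 fold change was -0.29 ± 0.07 with olea (SE, adjusted p = 0.0097) and -0.41 ± 0.07 with pear (adjusted p = 0.0012). The call with olea was lost without olea replicate 3.

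Phenylalanyl-tRNA synthetase of the cytosol is built of alpha and beta subunits from separate genes, and both fell. The beta subunit (GB52983) had 49.9, 51.1 and 50.3 CPM with olea and 54.2, 48.2 and 51.8 CPM with pear, against 68.5, 79.5 and 59.1 CPM in control tentacles. The alpha subunit (GB51400) had 24.8, 26.2 and 27.0 CPM with olea and 28.7, 28.7 and 27.3 CPM with pear, against 31.9, 36.0 and 32.3 CPM in controls. Neither subunit overlapped between pollen and control tentacles, although the 3 controls of the beta subunit were spread widely. The log2 fold change of beta was -0.46 ± 0.09 with olea (adjusted p = 0.0028) and -0.44 ± 0.09 with pear (adjusted p = 0.0036), and that of alpha was -0.37 ± 0.07 with olea (adjusted p = 0.0021) and -0.25 ± 0.07 with pear (adjusted p = 0.017). Without pear replicate 3 the alpha subunit no longer passed with pear.

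Enzymes for asparagine, serine and glutamine were also lower with both pollens in the tentacles. The cytosolic asparaginyl enzyme (GB42355) had 64.0, 69.8 and 65.5 CPM with olea and 65.5, 65.0 and 68.2 CPM with pear, against 73.6, 81.6 and 75.8 CPM in controls, without overlap (-0.22 ± 0.05 and -0.23 ± 0.05 on the log2 scale, adjusted p = 0.011 and 0.0083), and the call with olea was lost without olea replicate 3. The cytosolic seryl enzyme (GB45738) had 24.1, 25.4 and 21.9 CPM with olea and 27.2, 26.6 and 27.0 CPM with pear, against 28.6, 34.2 and 35.5 CPM in controls (-0.47 ± 0.09 and -0.29 ± 0.09, adjusted p = 0.0021 and 0.026). Its lowest control library stood close to the pear libraries, and 4 of 6 fits without 1 library lost the call with pear. A second gene of the seryl type, annotated as an uncharacterised protein (GB42367), had log2 fold changes of -0.35 ± 0.08 and -0.29 ± 0.07 (adjusted p = 0.0052 and 0.013), the one with pear lost without pear replicate 1. For the glutaminyl enzyme (GB41304) they were -0.18 ± 0.06 and -0.20 ± 0.06 (adjusted p = 0.038 and 0.025), and 4 of 6 fits without 1 library lost the call with olea and 2 of 6 the call with pear.

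**Figure D2:**
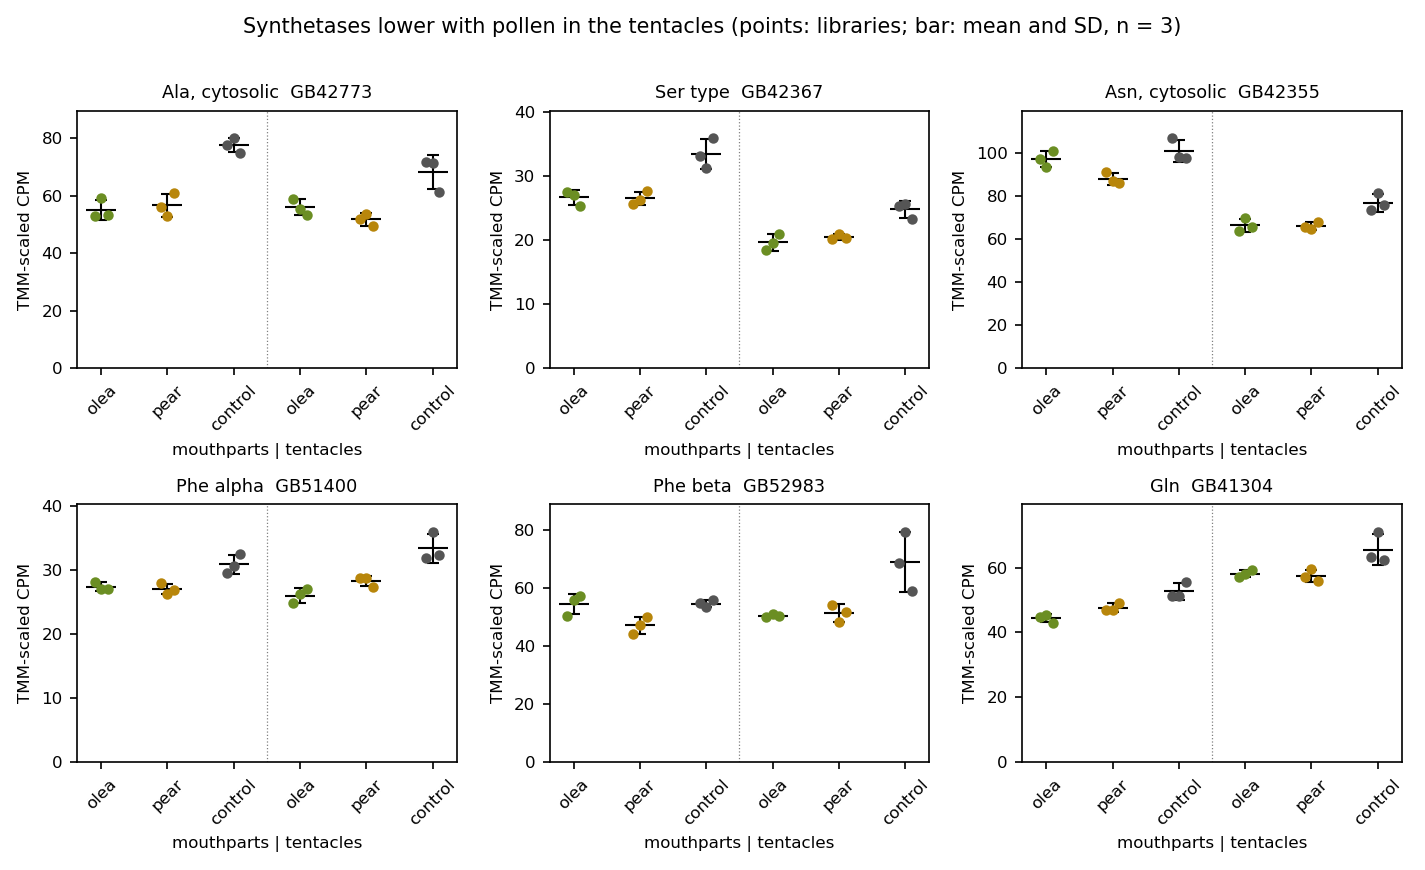
TMM-scaled CPM (vertical axis) of 6 synthetase genes, 1 in each panel, in olea, pear and control libraries of mouthparts (left) and tentacles (right). Points are libraries and bars are the mean and SD of 3, and for the alanyl enzyme GB42773 the control points stand above all pollen points in both tissues.

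Of the mitochondrial enzymes 5 of 14 were lower in the tentacles with olea and 6 of 14 with pear. Of the 13 annotated as cytosolic 3 were lower with each pollen. Of the 9 without a compartment, which include both phenylalanyl subunits named above, 4 were lower with each pollen. Over all genes tested 13.5% were lower with olea and 14.6% with pear. The differences between the shares of these compartments were not tested. The mitochondrial alanyl gene (GB47350) had 11.9, 10.8 and 13.1 CPM with olea and 12.9, 11.0 and 10.4 CPM with pear, against 16.6, 14.3 and 14.8 CPM in controls (-0.37 ± 0.11 and -0.42 ± 0.11, adjusted p = 0.026 and 0.013). The mitochondrial prolyl gene (GB49485) had 44.8, 40.7 and 41.9 CPM with olea and 46.2, 43.7 and 46.5 CPM with pear, against 51.4, 54.6 and 48.1 CPM in controls (-0.28 ± 0.06 and -0.19 ± 0.06, adjusted p = 0.0065 and 0.045). Neither gene overlapped between pollen and control libraries, but 5 of 6 fits without 1 library lost the call of the prolyl gene with pear. The alanyl gene lost its call in 3 of 6 such fits with olea and 2 of 6 with pear. The arginyl (GB50751) and phenylalanyl (GB44144) genes of mitochondria passed with olea, at -0.65 ± 0.17 and -0.35 ± 0.09 (adjusted p = 0.016 and 0.011), but the arginyl call was lost in 3 of 6 such fits and the phenylalanyl call without olea replicate 3.

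With pear pollen the mitochondrial methionyl gene (GB50039) had 45.2, 45.8 and 44.7 CPM, against 53.9, 68.6 and 53.2 CPM in control tentacles (-0.38 ± 0.09, adjusted p = 0.0057). The groups did not overlap, and the call held without any 1 library. Glutamyl (GB47333) and seryl (GB40207) genes of mitochondria passed with pear at -0.32 ± 0.09 and -0.30 ± 0.09 (adjusted p = 0.016 and 0.030), but 4 of 6 and 3 of 6 fits without 1 library lost these calls. The mitochondrial cysteinyl gene (GB51644) passed with both pollens, at -0.29 ± 0.10 and -0.28 ± 0.10 (adjusted p = 0.040 and 0.042), and each call was lost in 4 of 6 such fits. SepSecS (GB49488) had 13.9, 13.2 and 15.0 CPM with pear, against 16.2, 17.5 and 18.8 CPM in controls (-0.32 ± 0.09, adjusted p = 0.018), a call lost without pear replicate 1 or 2.

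The synthetases fall into classes I and II by the fold of their catalytic domain, read here from the deposited domain names. The glycyl gene (GB51999) is in neither class here, since its deposited domain name gives none, and the glutamyl-prolyl gene (GB47572) was placed in class I. In the tentacles 9 of the 16 class II genes so named were lower with each pollen, and all 16 had log2 fold changes below 0. The glycyl gene had 81.3, 83.8 and 83.3 CPM with olea and 86.0, 83.2 and 89.3 CPM with pear, against 78.1, 80.2 and 84.6 CPM in controls. Of the 19 class I genes 3 were lower with olea and 4 with pear. Over all genes tested 13.5% were lower with olea and 14.6% with pear. The difference between the classes was not tested. Between olea and pear tentacles 0 of the 40 enzymes were called in edgeR's test, against a background of 1.91% of 12950 genes higher and 0.695% lower. At an unadjusted p under 0.05 0 of them differed, and DESeq2 and limma on log2(FPKM + 1) called 0. When those 6 libraries were fitted alone, the mitochondrial methionyl gene GB50039 was higher and the tyrosyl gene GB52739 lower with olea. In that fit 767 of 12687 genes were higher and 646 lower.

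In the mouthparts the same comparisons gave lower calls of similar number. With olea pollen 11 of the 40 enzymes fell and 1 rose, and with pear pollen 15 fell and 2 rose, again against shared control libraries. The background was 14.8% of 12285 genes lower and 12.0% higher with olea, and 17.3% lower and 16.5% higher with pear. The median log2 fold change of the 40 was -0.10 with olea and -0.13 with pear, against -0.012 and 0.013 over all genes. These counts depend on the scaling, since with library totals the median of all genes with pear was 0.147. Of all called genes 59.4% were higher with olea under library totals, against 44.7% with TMM, and with pear 74.6% were higher, against 48.8%. Over all members, 13 were lower with olea and 16 with pear, of which 8 and 3 kept the call with library totals. Without olea replicate 3, 8 members were lower with olea, and without control replicate 1 or olea replicate 3, 1 of 2 was higher. With pear 7, 9, 8 and 8 members were lower without control replicates 1 or 3 or pear replicates 1 or 2, and the 3 higher members were reduced to 0 without control replicate 2 or pear replicate 3.

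The gland genes moved here as well. The royal jelly family was lower in 17 of 26 tested genes with olea and 18 of 26 with pear, with summed levels of 11680 to 14500 CPM in olea and 10320 to 12010 CPM in pear mouthparts, against 94630 to 102000 CPM in controls. The secretory list had summed levels of 3621 to 4054 CPM with olea and 3068 to 3307 CPM with pear, against 5101 to 5300 CPM in controls. The 40 enzymes summed to 2074 to 2224 CPM with olea and 2176 to 2316 CPM with pear, against 2330 to 2422 CPM in controls. Their lower sum with pear depends on the TMM scaling. As a share of all counts they held 0.189 to 0.201% with olea and 0.202 to 0.226% with pear, against 0.201 to 0.21% in controls. Muscle genes summed to 26760 to 36220 CPM in olea and 23920 to 37800 CPM in pear mouthparts, against 24940 to 26230 CPM in controls. Hemocyte and immune genes were lower in 3 of 4 with olea and 3 of 4 with pear, and fat body genes in 6 and 8 of 11. Of 28 tested neuron genes 5 were higher and 2 lower with olea, and 12 higher and 1 lower with pear. The median log2 fold change of the neuron genes was 0.0 with olea and 0.25 with pear. The part of gland, muscle, immune cell, fat body and neuron RNA in the enzyme results was not tested.

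Alanyl-tRNA synthetase (GB42773) was again lower with both pollens. It had 53.0, 59.1 and 53.3 CPM in olea mouthparts and 56.1, 53.0 and 60.9 CPM in pear mouthparts, against 77.7, 79.9 and 75.0 CPM in control mouthparts. No pollen library came near a control library. Its log2 fold change was -0.48 ± 0.07 with olea (adjusted p = 0.00061) and -0.45 ± 0.07 with pear (adjusted p = 0.00049), and it passed with library totals and without any 1 library.

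The seryl-type gene GB42367 had 27.5, 27.1 and 25.4 CPM with olea and 25.6, 26.2 and 27.7 CPM with pear, against 33.2, 31.2 and 35.9 CPM in control mouthparts (-0.31 ± 0.08 and -0.34 ± 0.08, adjusted p = 0.011 and 0.0053). GatA (GB49033) had 9.56, 10.8 and 10.9 CPM with olea and 10.2, 10.2 and 9.83 CPM with pear, against 16.4, 14.4 and 11.4 CPM in controls (-0.42 ± 0.13 and -0.48 ± 0.13, adjusted p = 0.030 and 0.011). Pollen and control libraries did not overlap in either gene, but 5 of 6 fits without 1 library lost the call of GatA with olea, and GB42367 lost its call with pear under library totals. The call of GatA with pear was lost without control replicate 1, and that of GB42367 with olea without control replicate 3. The partner subunit GatB (GB41031) had 11.9, 19.4 and 14.7 CPM with olea and 20.2, 19.0 and 18.7 CPM with pear, against 19.6, 18.7 and 21.3 CPM in controls, and did not pass (-0.36 ± 0.14, adjusted p = 0.086 with olea and -0.04 ± 0.14, adjusted p = 0.85 with pear). Of the cytosolic enzymes, the cysteinyl gene (GB41455) passed with olea at -0.29 ± 0.08 (adjusted p = 0.022), lost in 4 of 6 fits without 1 library. The glutaminyl gene (GB41304) had 44.7, 45.4 and 43.0 CPM with olea, against 51.2, 51.1 and 55.6 CPM in controls (-0.23 ± 0.06, adjusted p = 0.017), a call lost in 2 of 6 such fits.

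With pear pollen 6 of the 14 mitochondrial enzymes were lower in the mouthparts, whereas with olea 1 was lower and 1 higher. Their median log2 fold change was -0.15 with pear and 0.04 with olea. Of the 13 cytosolic enzymes 6 were lower and 1 higher with pear, and 4 were lower with olea. Of the 9 without a compartment 2 were lower and 1 higher with pear, and 5 were lower with olea. Over all genes tested 17.3% were lower and 16.5% higher with pear, and 14.8% and 12.0% with olea. The differences between these shares were not tested. The mitochondrial phenylalanyl gene (GB44144) had 29.7, 39.4 and 40.1 CPM with pear, against 47.5, 45.6 and 49.0 CPM in controls (-0.38 ± 0.10, adjusted p = 0.012). The mitochondrial seryl gene (GB40207) had 13.7, 14.8 and 15.8 CPM with pear, against 17.0, 20.2 and 19.7 CPM in controls (-0.36 ± 0.10, adjusted p = 0.018). Neither gene overlapped between the groups, and neither kept its call under library totals. The seryl call was also lost in 3 of 6 fits without 1 library. Arginyl (GB50751), cysteinyl (GB51644), methionyl (GB50039) and aspartyl (GB42721) genes of mitochondria passed at -0.49 ± 0.17, -0.32 ± 0.11, -0.20 ± 0.06 and -0.17 ± 0.06 (adjusted p = 0.038, 0.048, 0.033 and 0.046), and each call was lost in 4 or 5 of 6 fits without 1 library. Of the cytosolic enzymes, histidyl (GB55506) had 120, 128 and 125 CPM with pear, against 148, 149 and 153 CPM in controls (-0.27 ± 0.05, adjusted p = 0.0013), and the call held without any 1 library but not with library totals. The asparaginyl (GB42355), threonyl (GB40563), tryptophanyl (GB46801) and tyrosyl (GB52739) genes passed at -0.20 ± 0.06, -0.14 ± 0.05, -0.23 ± 0.08 and -0.17 ± 0.06 (adjusted p = 0.021, 0.041, 0.043 and 0.046), and the phenylalanyl beta gene (GB52983) at -0.21 ± 0.07 (adjusted p = 0.030). Fits without 1 library lost the asparaginyl call in 3 of 6, the phenylalanyl beta call in 4 of 6 and each of the threonyl, tryptophanyl and tyrosyl calls in 5 of 6.

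Mouthparts and tentacles share no libraries, so their lists of lower members can be set side by side. The labels do not say whether both tissues came from the same bees, so the lists may not be independent. With olea 5 members were on both lists, 38.5% of the 13 in the mouthparts and 38.5% of the 13 in the tentacles, against 30.5% and 31.7% over all genes. With pear 8 were on both, 50.0% of the 16 in the mouthparts and 53.3% of the 15 in the tentacles, against 37.7% and 42.4% over all genes. GB42773, GB42367 and the peritrophin GB41202 were lower in all 4 contrasts. GB41202 had 18.2, 18.1 and 17.8 CPM with olea and 18.6, 17.4 and 16.3 CPM with pear, against 27.2, 26.8 and 25.6 CPM in control mouthparts, without overlap (-0.54 ± 0.08 and -0.60 ± 0.08, adjusted p = 0.00051 and 0.00012). In tentacles it had 7.06, 6.24 and 6.25 CPM with olea and 6.52, 6.86 and 7.18 CPM with pear, against 9.44, 10.4 and 9.32 CPM in controls (-0.59 ± 0.10 and -0.51 ± 0.10, adjusted p = 0.0010 and 0.0020). Its deposited name is a peritrophic matrix protein, and it is counted among the weak matches.

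The largest pollen differences among the 40 enzymes lay between olea and pear mouthparts. There 8 enzymes were higher and 7 lower with olea than with pear, against a background of 14.9% of 12285 genes higher and 15.9% lower. Of the lower enzymes 3 were cytosolic, 3 without a compartment and 1 mitochondrial, and of the higher ones 5 were mitochondrial, 2 cytosolic and 1 without a compartment. By catalytic class, again without the glycyl gene, 2 of 19 class I genes were higher and 6 lower, and 6 of 16 class II genes were higher and 1 lower. Differences between the compartments or between the classes were not tested. The higher side depends on the scaling, with 2 members higher with library totals and 0 with limma on log2(FPKM + 1). It held 4, 5 and 3 members without pear replicates 1 or 2 or olea replicate 3. All 9 members on the lower side, which include weak matches, kept their call with library totals. That scaling put 31.3% of all called genes on the higher side, against 48.4% with TMM.

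Genes of other cells differed between the same libraries. The hypopharyngeal gland enzymes were higher with olea in 4 of 6, with summed levels of 3557 to 5739 CPM in olea and 662.4 to 697.3 CPM in pear mouthparts. Royal jelly family genes were higher in 9 and lower in 3 of 26, and the secretory list was higher in 8 of 12, at 3621 to 4054 CPM with olea and 3068 to 3307 CPM with pear. Photoreceptor genes were higher in 4 of 8, at 62.0 to 121.9 CPM with olea and 15.82 to 17.99 CPM with pear, hemocyte and immune genes in 2 of 4 and fat body genes in 3 of 11. Neuron genes were lower with olea in 12 and higher in 1 of 28. The 3 venom gland genes summed to 81.0 to 100.4 CPM with olea and 12.5 to 34.7 CPM with pear. The part of these cells' RNA in the enzyme results was not tested.

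The bifunctional glutamyl-prolyl-tRNA synthetase (GB47572), which charges glutamate and proline from 1 polypeptide, had the largest difference of the 40. It had 34.2, 50.0 and 33.0 CPM in olea mouthparts, against 102, 110 and 115 CPM in pear mouthparts. Control mouthparts stood between them with 79.1, 64.3 and 81.3 CPM, and no group overlapped another. Its log2 fold change was -1.46 ± 0.16 for olea over pear (adjusted p = 0.00023). Against control mouthparts it was -0.92 ± 0.16 with olea (adjusted p = 0.0026) and 0.54 ± 0.15 with pear (adjusted p = 0.022). The rise with pear was lost without control replicate 2 or pear replicates 2 or 3, and both olea contrasts passed without any 1 library. In tentacles the gene had 102, 91.8 and 98.4 CPM with olea and 89.3, 96.8 and 104 CPM with pear, against 94.9, 91.0 and 86.7 CPM in controls. These groups overlapped and no contrast passed.

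The valyl enzyme GB45284 had 81.0, 88.3 and 80.0 CPM in olea mouthparts, against 127, 125 and 129 CPM in pear and 126, 114 and 120 CPM in control mouthparts. Its 3 olea libraries stood apart from the other 6, which overlapped (-0.60 ± 0.06 over pear and -0.51 ± 0.06 over control, adjusted p = 3.8e-05 and 9.4e-05). The cytosolic arginyl enzyme (GB54842) had 43.8, 46.4 and 37.8 CPM with olea, against 71.2, 71.9 and 78.3 CPM with pear and 62.3, 56.3 and 61.8 CPM in controls (-0.77 ± 0.08 over pear and -0.48 ± 0.08 over control, adjusted p = 5.6e-05 and 0.0013). Its groups formed 3 steps without overlap, with pear higher than control by 0.29 ± 0.08 (adjusted p = 0.015), a call lost without control replicate 2 or pear replicate 3. The cytosolic leucyl gene GB54843, its direct neighbour in the gene order of the RefSeq assembly HAv3.1, had 95.0, 108 and 103 CPM with olea, against 108, 121 and 119 CPM with pear (-0.17 ± 0.06, adjusted p = 0.048), a call lost with DESeq2 and in 4 of 6 fits without 1 library.

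The mitochondrial leucyl gene (GB54109) had 46.8, 57.5 and 50.9 CPM with olea, against 67.1, 66.6 and 68.8 CPM with pear and 71.1, 63.5 and 66.1 CPM in control mouthparts (-0.37 ± 0.08 and -0.36 ± 0.08, adjusted p = 0.0035 and 0.0053). The second valyl gene, GB55147, had 12.1, 16.5 and 11.6 CPM with olea, against 17.1, 22.0 and 24.3 CPM with pear and 19.6, 19.6 and 17.8 CPM in controls (-0.64 ± 0.15 and -0.49 ± 0.15, adjusted p = 0.0072 and 0.033). In both genes all olea libraries were below the others, but 5 of 6 fits without 1 library lost the call of GB55147 against control. The cytosolic seryl enzyme (GB45738) had 21.9, 21.4 and 19.2 CPM with olea, against 30.0, 24.3 and 25.7 CPM with pear and 30.6, 28.8 and 33.8 CPM in controls (-0.34 ± 0.10 and -0.56 ± 0.10, adjusted p = 0.023 and 0.0020). Its call against pear was lost without olea replicate 3 or pear replicate 1, whereas the call against control held without any 1 library.

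**Figure D3:**
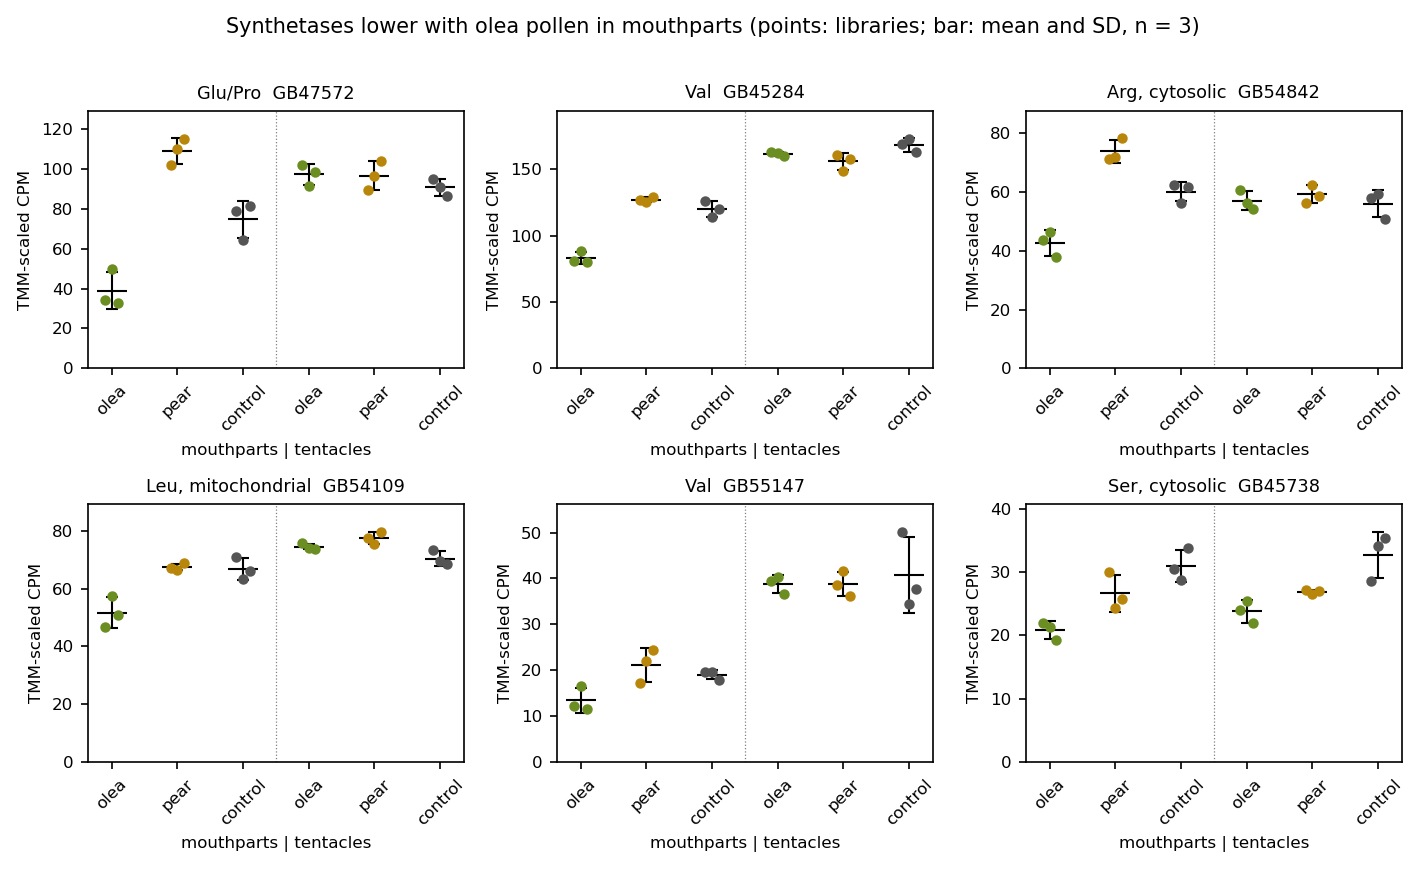
TMM-scaled CPM (vertical axis) of 6 synthetase genes in olea, pear and control libraries of mouthparts (left) and tentacles (right), with points for libraries and bars for the mean and SD of 3. In the mouthparts the olea points of GB47572 lie at 33.0 to 50.0 CPM, below those of pear and control, while the tentacles groups of that gene overlap.

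On the other side, the mitochondrial methionyl gene (GB50039) had 57.9, 63.5 and 63.2 CPM with olea, against 49.4, 50.6 and 52.2 CPM with pear (0.29 ± 0.06, adjusted p = 0.0045). The mitochondrial cysteinyl gene (GB51644) had 63.7, 71.6 and 74.9 CPM with olea, against 43.6, 56.0 and 61.5 CPM with pear (0.40 ± 0.11, adjusted p = 0.020), a call lost without olea replicate 3. Groups did not overlap in either gene, and the 3 pear libraries of the cysteinyl gene were spread widely. Seryl (GB40207), prolyl (GB49485) and aspartyl (GB42721) genes of mitochondria were higher by 0.31 ± 0.10, 0.23 ± 0.07 and 0.23 ± 0.06 (adjusted p = 0.035, 0.023 and 0.015), calls lost in 4 of 6, 3 of 6 and 2 of 6 fits without 1 library. Of these 5, the prolyl gene was also higher than in control mouthparts, with 55.0, 60.1 and 62.1 CPM with olea, against 51.3, 47.5 and 49.3 CPM in controls (0.27 ± 0.07, adjusted p = 0.011). Histidyl (GB55506), threonyl (GB40563) and phenylalanyl beta (GB52983) genes were higher with olea than with pear by 0.20 ± 0.05, 0.19 ± 0.05 and 0.22 ± 0.07 (adjusted p = 0.0083, 0.012 and 0.025). The phenylalanyl beta call was lost in 3 of 6 such fits. All 8 higher calls were absent with limma on log2(FPKM + 1).

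Among the weak matches, the NUC153 domain gene GB52612 had 5.79, 6.09 and 4.87 CPM with olea, against 11.5, 10.9 and 13.1 CPM with pear and 9.28, 6.18 and 9.33 CPM in control mouthparts. Olea libraries were all below the control libraries and pear libraries all above them (-1.07 ± 0.16 for olea over pear, -0.55 ± 0.17 for olea and 0.52 ± 0.16 for pear over control, adjusted p = 0.00052, 0.029 and 0.023). The call over pear held without any 1 library, while 4 of 6 such fits lost the call with olea and 2 of 6 the call with pear against control. GB40843, a protein with leucine-rich repeats, was lower with olea than with pear (-0.25 ± 0.08, adjusted p = 0.032, lost in 4 of 6 such fits), and the NFACT domain gene GB49421 was higher with olea than in controls (0.39 ± 0.10, adjusted p = 0.013, lost in 2 of 6). GB45527, with a TM2 domain, passed no pollen comparison, and GB55130 varied between 0 and 3.4 CPM with no call.

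Of the 8 genes that matched enzymes of the animal multi-synthetase complex, the glutamyl-prolyl, arginyl and leucyl genes were lower in olea than in pear mouthparts, and the isoleucyl, methionyl, glutaminyl, lysyl and aspartyl genes did not pass. Their summed level was 534.1 to 587.0 CPM with olea and 652.0 to 711.5 CPM with pear, against 632.0 to 664.0 CPM in control mouthparts, with no overlap of olea with the others. The lysyl enzyme (GB49155) had 104, 102 and 107 CPM with olea and 106, 105 and 107 CPM with pear. The complex's scaffold protein AIMP2 (GB49161) was higher with olea, at 117 ± 11 CPM, against 92.7 ± 9.2 CPM with pear and 95.7 ± 4.2 CPM in controls (SD, n = 3 each), a log2 fold change of 0.36 ± 0.08 over pear (adjusted p = 0.0063), a call absent with limma on log2(FPKM + 1).

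Transcript length moved with the olea over pear contrast of the mouthparts over all genes. Lengths implied by the ratio of counts to FPKM were split into 5 bins of equal gene number, and the median log2 fold change was 0.06, 0.08, 0.02, -0.05 and -0.12 from the shortest to the longest bin. The share of genes lower with olea was 31.1% in the longest and 6.33% in the shortest bin. The glutamyl-prolyl (GB47572) and valyl (GB45284) transcripts, at 5674 and 6073 bases, were in the longest bin. So were the mitochondrial aspartyl (GB42721) and isoleucyl (GB52676) transcripts of 7800 and 7802 bases, of which the first was higher with olea and the second did not pass (-0.03 ± 0.07, adjusted p = 0.77). The arginyl transcript (GB54842), at 2595 bases, was in the bin with a median of -0.05. In tentacles, binned the same way, the share of genes lower than control with olea was 7.65%, 14.3%, 18.7%, 17.8% and 10.5% from shortest to longest. With pear it was 9.81%, 16.1%, 18.3%, 17.5% and 12.7%. These tentacles bins held 0, 2, 9, 14 and 11 of the synthetases. The part of length in these results was not tested.

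In all, 11 of the 40 enzymes passed no pollen comparison in either tissue. They were the mitochondrial isoleucyl, tyrosyl, tryptophanyl and asparaginyl genes (GB52676, GB44521, GB53303, GB55371), the cytosolic methionyl, aspartyl and isoleucyl genes (GB45760, GB52729, GB53173), the lysyl (GB49155) and glycyl (GB51999) genes, GatB and the formyltransferase. The share of all genes that passed no pollen comparison was not counted, so whether 11 of 40 is many or few cannot be said. The highest group mean of GB52676 was 1.04 times its lowest over the 6 groups, and that of GB45760 was 1.14 times. For GB53303 the ratio was 1.80, between pear tentacles and control mouthparts.

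Whether the pollen contrast differed between mouthparts and tentacles was tested as an interaction in a fit of all 18 libraries. With olea pollen 6 enzymes passed, 4 with a lower and 2 with a higher log2 fold change in mouthparts, against a background of 10.5% of 13361 genes lower and 4.93% higher, so that the shares of the 40 were close to the background. The glutamyl-prolyl gene (GB47572) had a difference of -1.04 ± 0.17 between its log2 fold changes in mouthparts and tentacles (adjusted p = 0.00063) and the valyl gene GB45284 of -0.48 ± 0.07 (adjusted p = 0.00026). For the arginyl gene (GB54842) and the mitochondrial leucyl gene (GB54109) the differences were -0.53 ± 0.11 and -0.46 ± 0.09 (adjusted p = 0.0039 and 0.0020). The mitochondrial prolyl gene (GB49485), higher with olea in mouthparts and lower in tentacles, had a difference of 0.53 ± 0.09 (adjusted p = 0.00090). The phenylalanyl beta gene (GB52983), with 0.01 ± 0.07 in mouthparts and -0.46 ± 0.09 in tentacles, had a difference of 0.45 ± 0.12 (adjusted p = 0.016). All 6 passed without any 1 library and with library totals.

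With pear pollen SepSecS (GB49488) passed, against a background of 5.46% of genes higher and 7.31% lower. It had 9.03, 9.65 and 10.4 CPM in pear mouthparts, against 7.31, 7.94 and 8.70 CPM in control mouthparts, where pear libraries were above control libraries but the contrast did not pass (0.28 ± 0.12, adjusted p = 0.084). In tentacles it was lower with pear, and the difference of the log2 fold changes was 0.59 ± 0.15 (adjusted p = 0.012). On the lower side edgeR called 0 members with pear, 2 had an unadjusted p under 0.05 and DESeq2 called 0. Without tentacles control replicate 3, 2 members were called higher and 1 lower with pear, without mouthparts control replicate 3, 1 was called lower, and without mouthparts olea replicate 1, 4 members were higher with olea. With library totals 6 members passed on the higher side with olea and 11 with pear. The share of all called genes on that side was 58.4% with olea, against 32.1% with TMM, and 80.9% with pear, against 42.7%.

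Between the tissues, with the 3 groups of bees weighing equally, 16 of the 40 enzymes were higher and 12 lower in mouthparts than in tentacles, against a background of 39.2% of 13361 genes higher and 43.3% lower. Of the cytosolic enzymes 9 of 13 were higher and 1 was lower, and of the mitochondrial ones 5 of 14 were higher and 4 lower. With library totals, where the median of all genes was -0.332, against -0.046 with TMM, 8 members were higher and 33 lower, against 19 and 13 members with TMM. Of all called genes 31.8% were then higher, against 47.5%.

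The valyl gene GB55147 had the largest difference of the 40 between tissues, with 11.6, 17.8 and 24.3 CPM as the lowest, median and highest library in mouthparts and 34.4, 38.5 and 50.2 CPM in tentacles (-1.17 ± 0.09, adjusted p = 3.1e-10). SepSecS (GB49488) had 7.31, 9.03 and 10.4 CPM in mouthparts and 13.2, 15.3 and 18.8 CPM in tentacles (-0.81 ± 0.06, adjusted p = 2.3e-10). The valyl gene GB45284 had 80.0, 120 and 129 CPM in mouthparts and 149, 162 and 173 CPM in tentacles (-0.58 ± 0.03, adjusted p = 5.5e-13). No mouthparts library reached the lowest tentacles library in these 3 genes. On the other side, the cytosolic aspartyl gene (GB52729) had 74.1, 84.8 and 92.5 CPM in mouthparts and 54.0, 56.4 and 59.9 CPM in tentacles (0.57 ± 0.04, adjusted p = 1.2e-10), and the asparaginyl gene (GB42355) 86.1, 97.3 and 107 and 64.0, 68.2 and 81.6 CPM (0.45 ± 0.03, adjusted p = 9.5e-11), both without overlap. Mitochondrial enzymes went both ways, with the alanyl (GB47350) and tryptophanyl (GB53303) genes at -0.62 ± 0.08 and -0.55 ± 0.07 (adjusted p = 7.7e-07 and 8.8e-07) and the phenylalanyl (GB44144) and cysteinyl (GB51644) genes at 0.48 ± 0.06 and 0.44 ± 0.07 (adjusted p = 2.9e-07 and 4.8e-06). All 9 genes of this paragraph kept their direction and call with library totals. The alanyl (GB42773), lysyl (GB49155), methionyl (GB45760), cysteinyl (GB41455) and mitochondrial methionyl (GB50039) and prolyl (GB49485) genes were higher in mouthparts with TMM and lower with library totals.

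**Figure D4:**
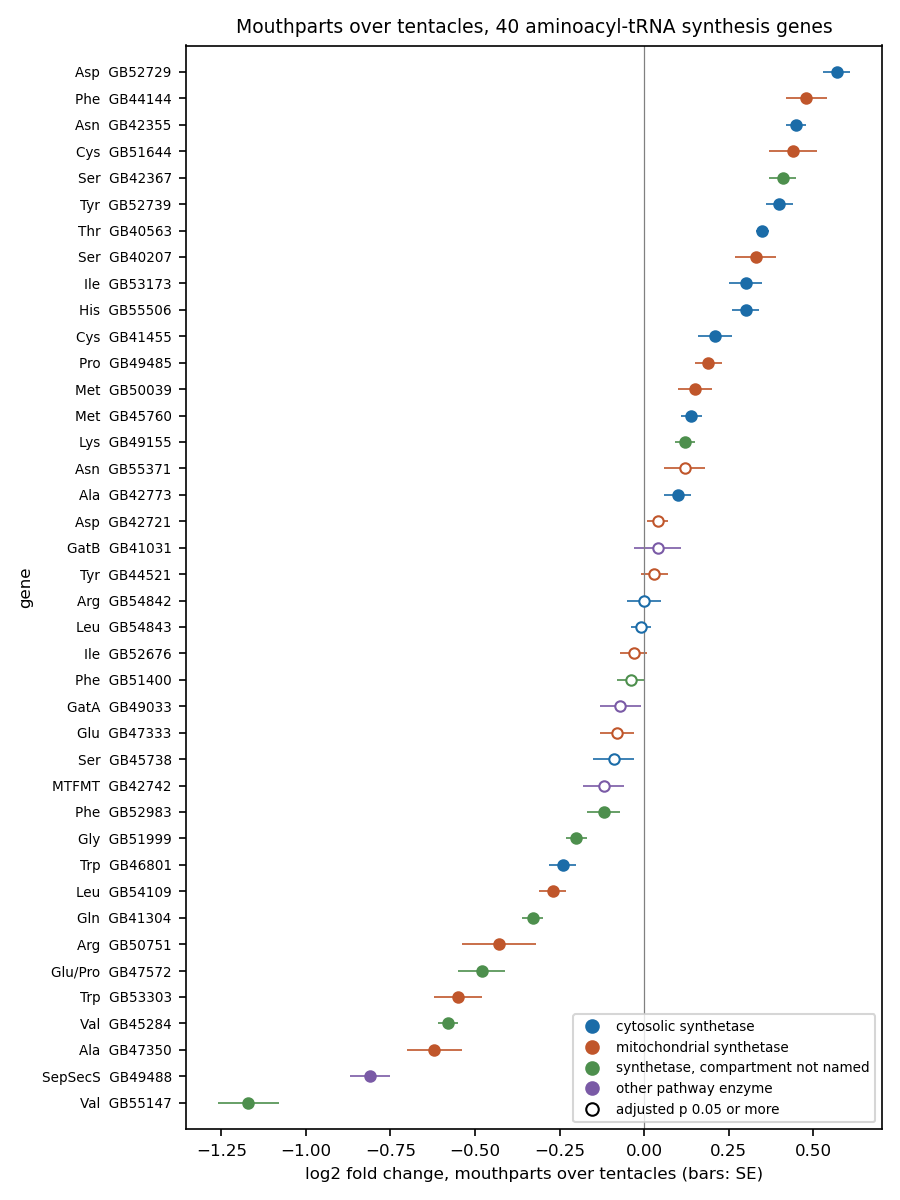
Log2 fold change of mouthparts over tentacles for the 40 enzymes (horizontal axis, bars are SE), with filled points at an adjusted p under 0.05 and open points otherwise. The valyl gene GB55147 at -1.17 and SepSecS GB49488 at -0.81 lie farthest to the left, and the cytosolic aspartyl gene GB52729 at 0.57 farthest to the right.

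Other genes that sense or use charged tRNA were counted from lists of annotation words. Of 20 genes of the amino acid response, 2 were higher and 5 lower with olea and 1 higher and 4 lower with pear in mouthparts. In tentacles 2 were higher and 4 lower with olea and 5 higher and 2 lower with pear. In mouthparts the background was 12.0% of genes higher and 14.8% lower with olea and 16.5% higher and 17.3% lower with pear, and in tentacles 14.4% higher and 13.5% lower with olea and 14.9% higher and 14.6% lower with pear. Asparagine synthetase (GB45340), which makes asparagine and is induced by amino acid shortage in many animals, had 20.9 to 26.7 CPM with olea and 22.3 to 23.7 CPM with pear, against 82.9 to 89.9 CPM in control mouthparts. In tentacles it had 23.4 to 26.5 CPM with olea and 25.6 to 26.9 CPM with pear, against 28.1 to 33.0 CPM in controls. Its log2 fold changes in mouthparts were -1.86 ± 0.09 and -1.90 ± 0.09 (adjusted p = 9.9e-08 and 1.6e-08), larger in size than those of any of the 40 enzymes in the same contrasts. The interaction with tissue passed, at -1.64 ± 0.12 with olea and -1.73 ± 0.12 with pear (adjusted p = 1.4e-07 and 6.9e-09).

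GCN2 (GB49932), the kinase that senses uncharged tRNA, was higher with olea and with pear in tentacles (0.33 ± 0.06 and 0.30 ± 0.06, adjusted p = 0.0026 and 0.0038) and with pear in mouthparts (0.35 ± 0.09, adjusted p = 0.0094). In olea mouthparts it was lower than in pear mouthparts (-0.43 ± 0.09, adjusted p = 0.0035), and did not pass against control (-0.08 ± 0.09, adjusted p = 0.58). PERK (GB44758), which phosphorylates the same initiation factor under stress of the endoplasmic reticulum, was lower with olea than with pear in mouthparts (-0.68 ± 0.07, adjusted p = 6.2e-05). Of 12 tested genes of the complex scaffold and of translation elongation, 2 were higher and 3 lower with olea and 2 higher and 5 lower with pear in mouthparts, and 1 and 2 with olea and 2 and 1 with pear in tentacles. Mitochondrial elongation factor G (GB42223), which moves the mitochondrial ribosome along its message, was lower with olea than with pear in mouthparts (-0.61 ± 0.08, adjusted p = 0.00030). Of the tested genes of tRNA processing and modification, 10 of 51 were higher and 4 lower with olea and 7 higher and 8 lower with pear in mouthparts. In tentacles 2 of 52 were higher and 12 lower with olea, and 2 higher and 10 lower with pear. These counts of elongation and tRNA processing genes stand against 12.0% of all genes higher and 14.8% lower with olea and 16.5% and 17.3% with pear in mouthparts, and 14.4% and 13.5% with olea and 14.9% and 14.6% with pear in tentacles.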

How the data were processed

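RNA-seq of 18 libraries, 3 for each tissue and group of bees, was read from a table holding the authors' deposited raw counts and FPKM for each gene. Alignment used HISAT2, per the submitters' processing notes; no version, genome build or counting tool is named in the sources used here. Counts were tested with edgeR 4.0.16 (R 4.3.3; TMM scaling, filterByExpr by group, robust quasi-likelihood fit, Benjamini-Hochberg adjustment over all genes tested), in the 9 libraries of a tissue for pollen contrasts and in all 18 for tissue contrasts and interactions. Alternatives were DESeq2 1.42.0, its size factors, library totals, no filter, limma 3.58.1 on log2(FPKM + 1) of the authors' FPKM, the 6 libraries of a contrast alone, a replicate block and leaving out each library. The test scripts were tested on simulated data. Enzymes named with values are, by comparison and class, those with the smallest p or largest change, the highest and lowest FPKM, and all that are not synthetases; others were given as counts, and those singled out in the companion lists were chosen with their values known. The members and lists were chosen with earlier results of these data known, among them that this pathway was lower in pear tentacles. Members came from the KEGG annotation, whose e-value of 1e-100 separates strong (at most 2.6e-173) from weak (at least 1.1e-97) matches, a limit set after seeing the data. Implied lengths used genes with at least 20 counts.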

Additional observations from a re-analysis of the deposited data

Results flagged for a closer look

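With olea pollen 6 enzymes changed differently in mouthparts and tentacles, by the test of the interaction over all 18 libraries. Of the 40 enzymes 4 had a lower and 2 a higher log2 fold change in mouthparts, against 10.5% of 13361 genes lower and 4.93% higher, so that these shares were close to the background. The difference of the log2 fold changes, mouthparts minus tentacles, was -1.04 for glutamyl-prolyl-tRNA synthetase (GB47572), -0.53 for the cytosolic arginyl enzyme (GB54842), -0.48 for the valyl enzyme GB45284 and -0.46 for the mitochondrial leucyl enzyme (GB54109). It was 0.53 for the mitochondrial prolyl enzyme (GB49485) and 0.45 for the phenylalanyl beta subunit (GB52983). The mouthparts part of these values rests on the 3 libraries whose labels conflict between olea and pear pollen. With pear pollen 1 enzyme of the 40 passed, on the higher side, against 5.46% of all genes higher and 7.31% lower, and the difference was 0.59 for SepSecS (GB49488).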

How the results depend on the processing

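Counts of members called lower in tentacles stayed within 1.5 times under every setting that kept all libraries of the contrast. Fitted alone, the 6 libraries of olea over pear tentacles gave 1 member higher and 1 lower, with 767 of 12687 genes higher and 646 lower. Mouthparts and tissue counts moved with the scaling, and the cause was not tested. With library totals and with log2(FPKM + 1), members higher with pear in mouthparts were 6 and 6 and lower 3 and 2, members lower with olea were 8 and 8, and members higher in olea than pear mouthparts were 2 and 0. Between tissues 8 and 7 were higher and 33 and 33 lower. Higher interactions were 6 and 4 with olea and 11 and 7 with pear, and 4 with pear in DESeq2. Leaving out 1 library gave these ranges. In tentacles 0 to 1 were higher and 7 to 19 lower with olea, 0 to 1 higher and 7 to 18 lower with pear, and 0 to 0 either way between pollens. In mouthparts 1 to 2 were higher and 8 to 14 lower with olea, 0 to 3 higher and 7 to 13 lower with pear, and 3 to 10 higher and 6 to 11 lower in olea than pear. Between tissues 18 to 20 were higher and 12 to 15 lower, and interactions were 2 to 4 higher and 4 to 6 lower with olea and 1 to 2 higher and 0 to 1 lower with pear. Some small log2 values changed sign. Under library totals and log2(FPKM + 1), mouthparts over tentacles was -0.11 and -0.10 for GB40843, -0.07 and -0.07 for GB41455, -0.19 and -0.17 for GB42773, -0.15 and -0.14 for GB45760, -0.16 and -0.16 for GB49155, -0.09 and -0.09 for GB49485 and -0.14 and -0.13 for GB50039. With pear in mouthparts GB41031 was 0.09 and 0.08 and GB49155 0.05 and 0.04. GB41031 with pear in tentacles was 0.00 with DESeq2 size factors, 0.01 with the replicate block and 0.00 to 0.11 without control replicate 2 or pear replicates 1 or 3, and with olea 0.04 without control replicate 2. The labels' replicate numbers were not taken as pairs, since same-numbered libraries of a tissue had correlations of -0.067 to 0.06 over 18 pairs. With the replicate block 14 members were lower in tentacles with pear and 12 with olea.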
